A study of Mus musculus with 12 samples.

Results

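Trophectoderm is the outer layer of the blastocyst, which gives rise to the placenta. The data concern 9 transcription factor genes that establish it or act in the trophoblast that descends from it (Tead4, Elf5, Eomes, Gata2, Gata3, Tfap2a, Tfap2c, Hand1 and Ascl2). They were chosen by name, with earlier results of these data known, and are 9 of the 55416 genes counted in 12 RNA sequencing libraries of mouse embryonic stem (ES) cells of the Bl/6J line. All 9 were found, and 8 had enough counts to be tested, among 17940 genes in all. Elf5 did not. Every library combines a genotype and a culture state, in 4 groups of 3 libraries. The C48S RA group comes from clone #46, whose Oct4 carries the change C48S, after 2 days of retinoic acid (RA) at 1.5 mg/L in medium without leukaemia inhibitory factor (LIF), and the WT RA group had the same RA treatment with unaltered Oct4. The C48S and WT undifferentiated groups were cultured with ascorbic acid and with the GSK3 inhibitor CHIR (3 µM) and the MEK inhibitor PD (1 µM), a pair that holds ES cells in a naive state. Whether the inhibitors were kept during RA is not given in the labels. The design compares the mutant and parental lines in both states. The mutant is a single clone, so the mutation and other properties of that clone cannot be told apart, nor can RA and the change of medium. The treatment field gives the RA libraries differing days, 5, 6 and 7 in C48S and 2, 3 and 4 in WT, whereas titles and protocol give day 2 for all, by which they were grouped. If the field were right, genotype and time in RA could not be told apart.

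In the embryo, Oct4 holds the inner cells of the blastocyst out of the trophoblast fate, and mouse ES cells that lose Oct4 turn into trophoblast-like cells. In outer cells Hippo signalling is low, so that the co-activator Yap enters the nucleus and, with the DNA-binding protein Tead4, switches on Cdx2 and Gata3. Eomes, Elf5 and Tfap2c then maintain trophoblast stem cells together with Cdx2, while Ascl2 and Hand1 act in the spongiotrophoblast and giant cell lineages that form later. None of the 9 genes is restricted to trophoblast: Eomes also acts in the primitive streak, Gata2 in blood formation, Gata3 in T cells, Tfap2a in surface ectoderm and neural crest, Tfap2c in germ cells and Hand1 in heart and extra-embryonic mesoderm.

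The libraries held 8678088 to 13597098 counts. Within groups, libraries correlated at r = 0.988 or more over all genes. Replicate 3 of the undifferentiated C48S group differed from the other libraries of its group (chi-square per degree of freedom 9.33 and 9.03, against at most 2.2 between any other libraries of a group). Where leaving it out changed a count of called genes among the regulators or in the gene lists below, both counts are given. For Hand1 the changes are given both ways too. Levels are given in CPM, the count scaled to the total of the library. The cells carried ES cell markers as labelled: 16 of them summed to 1961 to 2027 CPM in C48S and 1149 to 1184 CPM in WT after RA, and to 8416 to 8614 CPM in C48S and 8646 to 8832 CPM in WT before it. After RA 13 of the 16 were higher and 1 lower in C48S, where 28.8% of all tested genes were higher and 25.7% lower. Before RA 6 were higher and 7 lower, against 27.5% and 28.1% of all tested genes. Without C48S undifferentiated replicate 3 these counts were 14 and 1 after RA, and 6 and 8 before it. Pou5f1, which encodes Oct4, was at 68.3 ± 3.20 CPM in C48S and 23.0 ± 1.07 CPM in WT after RA, and at 557 ± 83.4 CPM in C48S and 585 ± 5.10 CPM in WT before it. Values after ± are SDs over 3 libraries for levels. For log2 fold changes they are approximate standard errors, the absolute change divided by the square root of the F statistic of its test. Whether libraries of a group are separate cultures is not given in the labels, and p-values cover only the spread among the libraries at hand. In bulk RNA, more cells that express a gene and more RNA per cell cannot be told apart.

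RefSeq promoter windows were found for 6 of the 9 genes, on GRCm38.p6, the build before that of the counts. Tead4, Tfap2c and Hand1 were not matched. Those of Gata3, Gata2 and Eomes are shown because these 3 genes had a larger RA change in C48S than in WT. Each runs over 250 bases up to the start of transcription. Capitals mark matches, on either strand, to GCCNNNGGC, the motif of the AP-2 proteins that Tfap2a and Tfap2c encode.
Gata3, chr2:9878601-9878850, minus strand: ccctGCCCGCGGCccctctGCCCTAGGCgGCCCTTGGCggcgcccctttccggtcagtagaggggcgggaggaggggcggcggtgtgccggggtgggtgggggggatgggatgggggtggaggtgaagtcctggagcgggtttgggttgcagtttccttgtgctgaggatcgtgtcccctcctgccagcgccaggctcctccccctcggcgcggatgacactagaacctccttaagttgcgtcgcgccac
Gata2, chr6:88193641-88193890, plus strand: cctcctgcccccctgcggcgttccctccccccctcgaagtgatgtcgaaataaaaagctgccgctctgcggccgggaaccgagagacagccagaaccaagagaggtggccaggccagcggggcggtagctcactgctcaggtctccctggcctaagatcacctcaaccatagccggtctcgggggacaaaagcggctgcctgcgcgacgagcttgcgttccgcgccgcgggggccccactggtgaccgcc
Eomes, chr9:118477939-118478188, plus strand: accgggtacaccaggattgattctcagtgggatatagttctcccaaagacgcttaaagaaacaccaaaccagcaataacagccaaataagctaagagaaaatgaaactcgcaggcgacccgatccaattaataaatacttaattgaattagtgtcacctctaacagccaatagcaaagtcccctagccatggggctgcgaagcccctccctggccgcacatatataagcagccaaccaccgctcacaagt
The Gata3 window holds 3 matches, which start 246, 231 and 221 bases before the start of transcription and do not overlap. The windows of Gata2 and Eomes shown here hold none. A second Gata2 window holds 1 match to the AP-2 motif and 1 to the TEAD motif. Of 32851 RefSeq promoter windows of this length, 13.7% hold at least 1. The motifs of the GATA factors (AGATAA, in 9.99% of windows), TEAD proteins (GGAATG, 12.6%), retinoic acid receptor half-sites (AGGTCA, 14%), the octamer (ATGCAAAT, 1.6%) and the E-box (CAGCTG, 13%) had no match on either strand in any of these 3 windows. A match or its absence describes these letters alone.

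The most abundant of the 9 factors, per length of transcript, was Tfap2c after RA and Tead4 before it, in both lines. After RA Tfap2c was at 55.7 ± 1.83 TPM (a level scaled for depth and gene length) in C48S and 30.5 ± 1.28 TPM in WT, followed by Gata3 at 25.4 ± 2.11 TPM in C48S and 23.6 ± 1.48 TPM in WT. In C48S after RA, Gata3, Gata2, Ascl2, Eomes and Tead4 formed a run between 25.4 and 18.3 TPM in which neighbours overlapped. In WT after RA such a run was formed by Ascl2, Hand1, Tfap2a, Gata2 and Tead4, between 15.1 and 10.3 TPM, with Eomes below it at 5.40 ± 0.463 TPM. In the undifferentiated libraries Tead4 was at 66.7 ± 7.49 TPM in C48S and 38.6 ± 1.14 TPM in WT. Tead4 made up 10.01 ± 0.250% of the summed TPM of the 9 genes in C48S and 8.58 ± 0.864% in WT after RA, and 49.1 ± 3.29% in C48S and 39.8 ± 1.19% in WT before it. Next in undifferentiated cells came Tfap2c (39.2 ± 3.16 TPM in C48S and 32.6 ± 4.48 TPM in WT) and Ascl2 (16.7 ± 2.28 TPM in C48S and 11.9 ± 3.34 TPM in WT), and every other member was below 6 TPM in each of these libraries. Elf5 was last in all 4 groups, below 0.3 TPM in every library. The 9 genes summed to 183 ± 5.75 TPM in C48S and 119 ± 8.94 TPM in WT after RA, and to 136 ± 6.77 TPM in C48S and 97.0 ± 0.828 TPM in WT before it, and the libraries of the lines did not overlap in either state. Before RA, Tead4 had the largest difference in TPM between the lines, while Gata3 and Hand1 were lower in C48S.

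**Figure D1:**
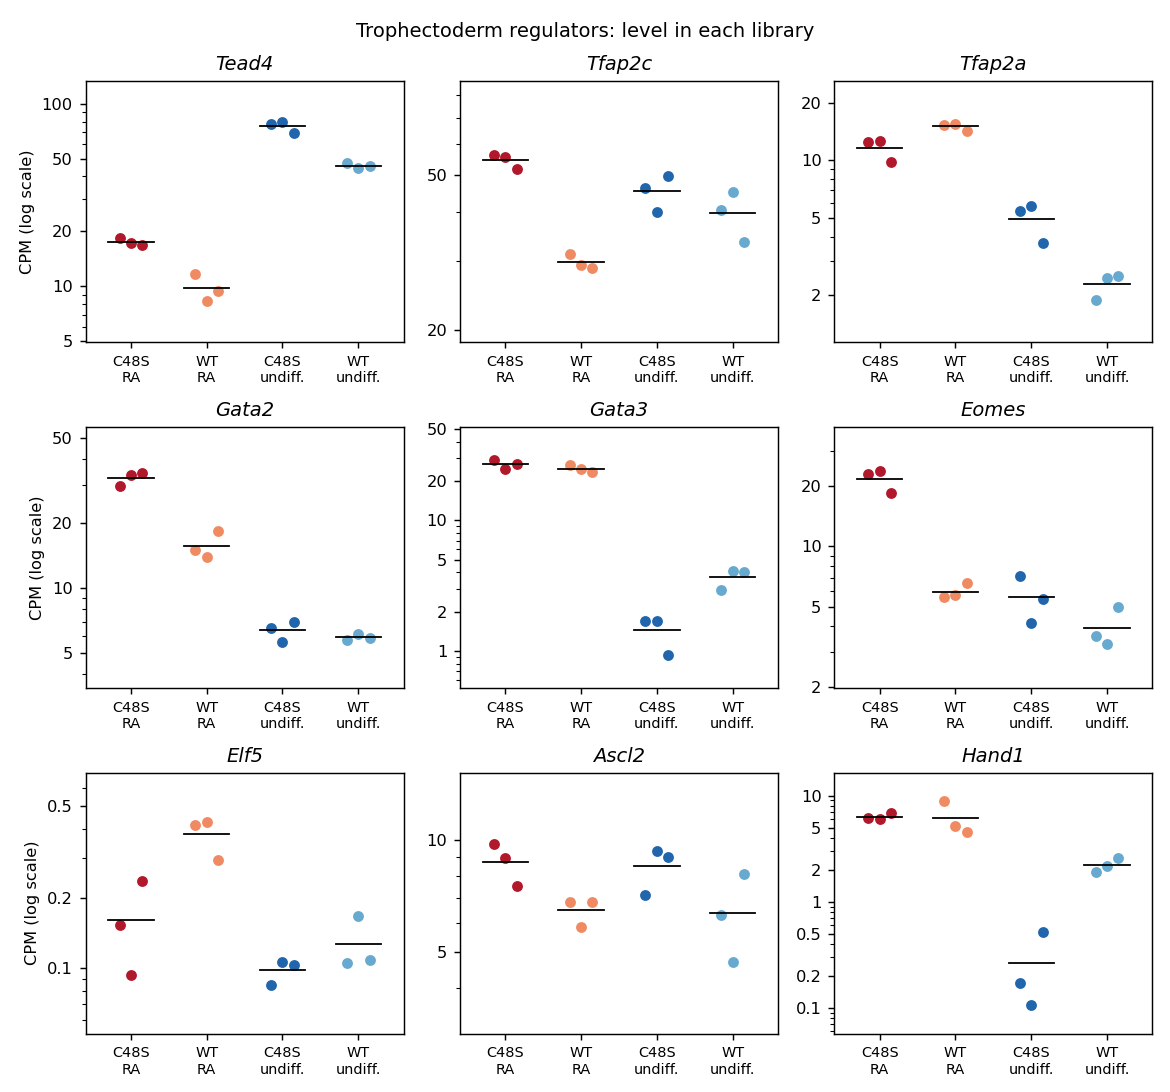
Level of each of the 9 genes in CPM (log scale, an own range per panel) in every library, with C48S RA, WT RA, C48S undifferentiated and WT undifferentiated from left to right. Points are libraries and lines are means of 3. Eomes, Gata2 and Tfap2c stand higher in C48S than in WT after RA, Gata3 and Hand1 lie together after RA and apart before it, and Tfap2a changes sides.

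**Figure D2:**
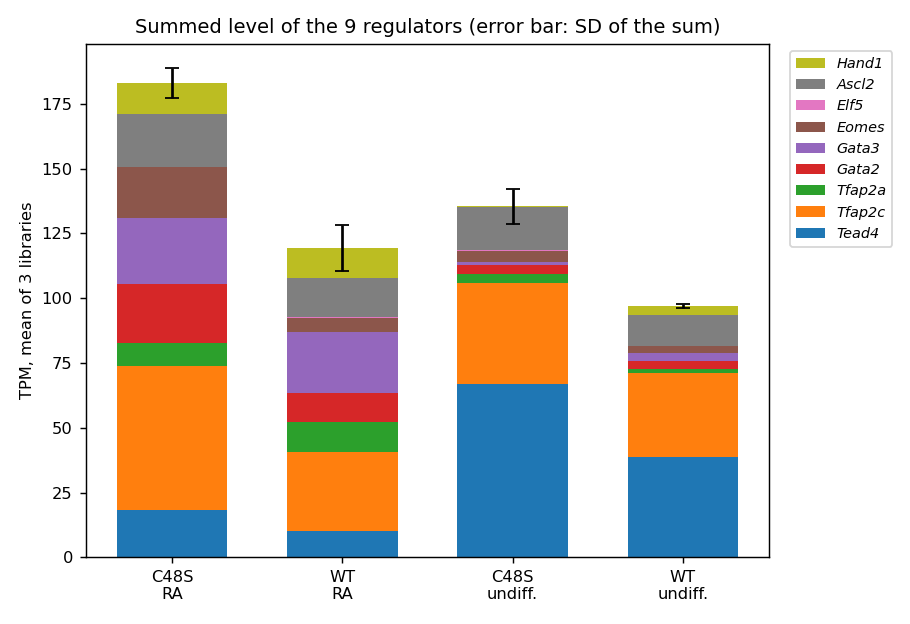
Mean TPM of the 9 genes, stacked, in the 4 groups; error bars are the SD of the sum over 3 libraries. Tead4 fills 10.01% of the bar in C48S and 8.58% in WT after RA, and 49.1% in C48S and 39.8% in WT before it.

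After RA, C48S cells held more RNA of 5 of the 8 tested regulators than WT cells (Tead4, Eomes, Gata2, Tfap2c and Ascl2). With 1 library left out this was 4 to 5, as the call of Ascl2 was not firm. Less was held of 1, Tfap2a, a count of 0 without WT RA replicate 2 or without C48S RA replicate 3. Gata3 and Hand1 did not pass the test. Tests are edgeR's quasi-likelihood test with Benjamini-Hochberg adjustment over all genes, and a gene was called at an adjusted p under 0.05. Called genes were common: 54.5% of all tested genes differed between the lines after RA (28.8% higher and 25.7% lower in C48S) and 55.6% before it (27.5% higher and 28.1% lower). In undifferentiated cells 4 of the 8 were higher in C48S (Tead4, Tfap2a, Eomes and Ascl2) and 2 lower (Gata3 and Hand1). Without C48S undifferentiated replicate 3 this was 3 higher and 2 lower, and without WT undifferentiated replicate 1 it was 2 higher. The libraries of the lines did not overlap for 6 of the 8 genes after RA, against 62.6% of all tested genes, and for 4 of the 8 before it, against 58.3%. The median log2 difference of the 8 genes was 0.64 after RA, against 0.023 over all tested genes, and 0.31 before RA, against 0.0014.

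With RA, 6 of the 8 rose in C48S and 1 fell, where 73.6% of all tested genes were called (39.0% higher and 34.6% lower). In WT 5 rose and 2 fell, where 78.3% were called (40.9% higher and 37.4% lower). With 1 library left out, 5 to 6 of the 8 rose in C48S and 4 to 5 in WT. Their median RA change was 1.58 in C48S and 1.01 in WT, against 0.049 and 0.055 over all tested genes. The difference between these RA changes, tested as an interaction, was positive (larger in C48S) for Eomes, Gata2, Gata3, Tfap2c and Hand1 and negative for Tfap2a, where 39.4% of all genes were called, 22.2% positive and 17.2% negative. Tead4 and Ascl2 did not pass that test. Both RA changes and both genotype differences share libraries, so these counts are not independent of one another.

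**Figure D3:**
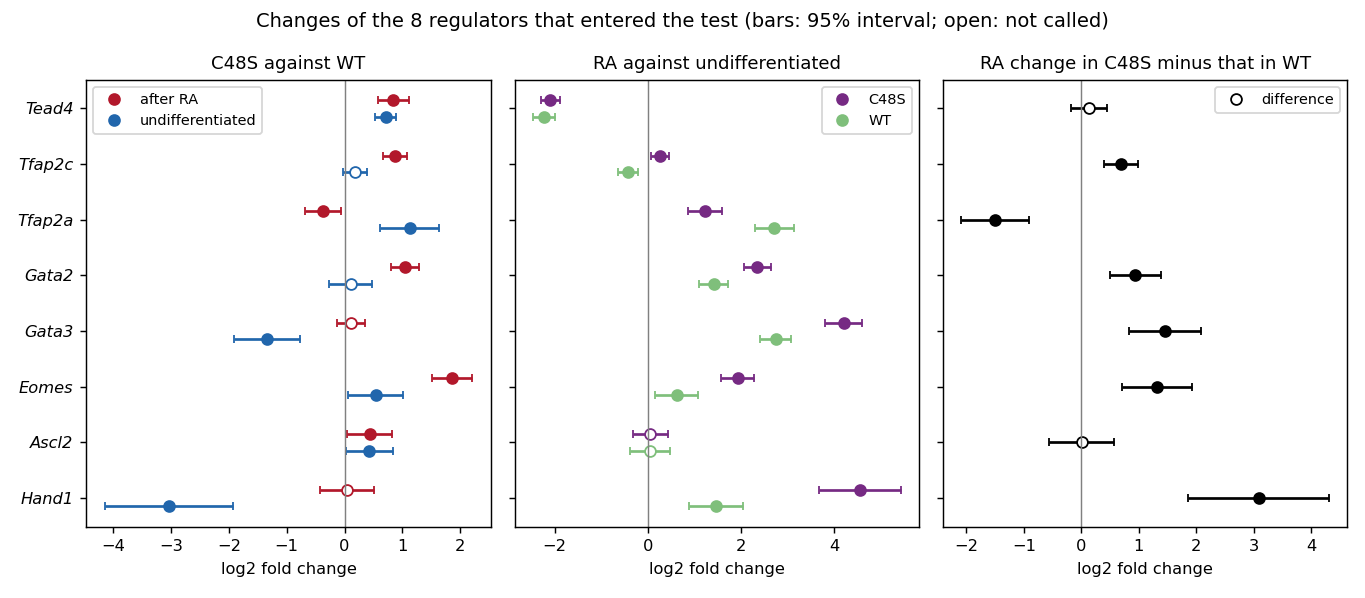
Log2 fold changes of the 8 tested regulators with 95% intervals (8 residual degrees of freedom): C48S against WT after RA and undifferentiated on the left, RA against undifferentiated in C48S and WT in the middle, and the difference of the RA changes on the right. Filled points passed the test at an adjusted p under 0.05. The largest of the differences on the right is that of Hand1 (3.09), and Tfap2a (-1.50) is the one called on the negative side.

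Tead4 encodes a DNA-binding partner of Yap and is needed for the trophectoderm to form. On GRCm39 it lies on chromosome 6 (128201251 to 128277786, minus strand). It was at 18.4, 17.2 and 17.0 CPM in the C48S RA libraries and at 11.7, 8.32 and 9.47 CPM in the WT RA libraries. Undifferentiated C48S libraries had 77.3, 79.4 and 69.0 CPM and undifferentiated WT libraries 47.4, 44.7 and 45.7 CPM. The lines did not overlap in either state, and every RA library was below every undifferentiated one. Tead4 was 1.80-fold higher in C48S after RA (log2 0.85 ± 0.11, adjusted p = 7.13e-08) and 1.64-fold higher before it (0.71 ± 0.080, adjusted p = 1.45e-09). With RA it fell 4.29-fold in C48S and 4.70-fold in WT. The RA changes differed by 0.13 ± 0.14 (95% interval -0.19 to 0.45), which did not pass the test (adjusted p = 0.482).

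The other TEAD genes had patterns of their own. Tead1 was at 378 ± 17.2 CPM in C48S and 337 ± 2.90 CPM in WT after RA, and at 367 ± 40.0 CPM in C48S and 526 ± 4.52 CPM in WT before it. It fell with RA in WT (-0.64 ± 0.055), while its change in C48S did not pass the test (0.041 ± 0.055, adjusted p = 0.511). Tead2 fell in both lines (-0.66 ± 0.054 in C48S and -0.69 ± 0.054 in WT), and Tead3 rose in both (1.75 ± 0.11 in C48S and 1.73 ± 0.10 in WT). Among 17 genes of the Hippo pathway and its TEAD partners, 5 were higher and 3 lower in C48S after RA, and 4 higher and 7 lower before it. Without C48S undifferentiated replicate 3 these counts were 6 and 3 after RA, and 4 and 6 before it. Of all tested genes 28.8% were higher and 25.7% lower after RA, and 27.5% and 28.1% before it. Yap1 itself was at 202 ± 10.3 CPM in C48S and 302 ± 4.71 CPM in WT before RA (-0.58 ± 0.048), and its difference after RA did not pass the test (0.10 ± 0.048, adjusted p = 0.0663). The upstream kinase Stk3 (-0.89 ± 0.10) and the membrane-linked Nf2 (-0.51 ± 0.047) were lower in undifferentiated C48S, whereas Mob1a, which binds the LATS kinases, was higher (0.57 ± 0.065). Nf2 lies on chromosome 11, whose median before RA was -0.527, and the part of that chromosome-wide shift in its value was not tested. Amot, a membrane protein that holds Yap outside the nucleus, rose with RA in C48S (2.23 ± 0.10) and in WT (2.53 ± 0.11). Of 12 genes known as Yap-TEAD targets, 10 rose and 0 fell with RA in C48S and 9 rose and 2 fell in WT, among them the kinase gene Nuak2 (1.52 ± 0.087 in C48S and 2.67 ± 0.093 in WT). Of all tested genes 39.0% rose and 34.6% fell in C48S, and 40.9% rose and 37.4% fell in WT. Between the lines after RA 4 of the 12 were higher and 3 lower in C48S (4 and 5 without C48S undifferentiated replicate 3). The median log2 difference of the 12 was 0.011, against 0.023 over all tested genes. Cdx2 and the matricellular gene Ccn2 had the smallest adjusted p of those higher (3.67 ± 0.15 and 0.88 ± 0.060). The 3 lower ones are not named here.

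The AP-2 genes went opposite ways between the lines after RA. Tfap2c, which encodes AP-2gamma, is needed for trophoblast stem cells and lies on chromosome 2 (172391513 to 172400542, plus strand). It was at 56.1, 55.6 and 51.8 CPM in the C48S RA libraries and 31.2, 29.3 and 28.8 CPM in the WT RA libraries. Undifferentiated C48S libraries had 46.3, 40.1 and 49.7 CPM and undifferentiated WT libraries 40.7, 45.1 and 33.5 CPM. The lines were apart after RA and overlapped before it. Tfap2c was 1.83-fold higher in C48S after RA (0.87 ± 0.090, adjusted p = 4.07e-10), and before RA the difference of 0.18 ± 0.090 did not pass the test (95% interval -0.022 to 0.39, adjusted p = 0.08). It passed without WT undifferentiated replicate 2 (0.29) or without C48S undifferentiated replicate 2 (0.26). With RA it rose slightly in C48S (0.26 ± 0.086, adjusted p = 0.0069), a call lost without C48S undifferentiated replicate 2 (0.16, adjusted p = 0.113). In WT it fell (-0.43 ± 0.094). C48S and WT thus differed in the RA change by 0.69 ± 0.13 (adjusted p = 4.03e-05). Tfap2c also acts in germ cells. Of 10 germ cell markers 5 were higher and 2 lower in C48S after RA, against 28.8% and 25.7% of all genes. Before RA 0 were higher and 5 lower, against 27.5% and 28.1%. Dazl, a regulator of germ cell messenger RNAs, was lower in both states (-2.15 ± 0.10 after RA and -5.57 ± 0.089 before). In CPM the germ cell markers summed to 444 to 451 in C48S and 549.8 to 587 in WT after RA, and to 244 to 256 in C48S and 737 to 787 in WT before it, with 0 of the 10 without a count, and their part in the values of Tfap2c was not tested.

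Tfap2a, which encodes AP-2alpha, lies on chromosome 13 (40868778 to 40891852, minus strand). It was at 12.5, 12.6 and 9.83 CPM in the C48S RA libraries and 15.3, 15.5 and 14.3 CPM in the WT RA libraries. Before RA it was at 5.43, 5.75 and 3.72 CPM in C48S and 1.89, 2.44 and 2.49 CPM in WT. All C48S libraries were above all WT libraries before RA and below them after it. Tfap2a was 2.18-fold higher in undifferentiated C48S (1.12 ± 0.22, adjusted p = 4.37e-05) and lower after RA (-0.37 ± 0.13, adjusted p = 0.0173). The call after RA was lost without WT RA replicate 2 (-0.35, adjusted p = 0.061) or C48S RA replicate 3 (-0.26, adjusted p = 0.134). With RA it rose 2.33-fold in C48S and 6.57-fold in WT, a difference of -1.50 ± 0.26 on the log2 scale (adjusted p = 1.22e-05). Per length, Tfap2c exceeded Tfap2a 6.29 ± 0.641-fold in C48S and 2.64 ± 0.106-fold in WT after RA, and 12.8 ± 4.44-fold in C48S and 23.8 ± 5.47-fold in WT before it. Of the other AP-2 genes, Tfap2b and Tfap2d had a mean of at most 0.228 CPM in any group, and Tfap2e rose with RA in both lines (1.43 ± 0.44 in C48S and 1.23 ± 0.44 in WT). Of 14 surface ectoderm and neural crest markers, where Tfap2a also acts, 13 were tested. With RA 11 rose and 1 fell in C48S (39.0% and 34.6% of all genes). In WT 9 rose and 3 fell (40.9% and 37.4%). After RA 6 were higher in C48S and 4 lower (7 and 4 without C48S undifferentiated replicate 3), against 28.8% and 25.7% of all genes. Their sums after RA were 241 to 256 CPM in C48S and 149.8 to 164 CPM in WT. Before RA 0 were higher (1 without C48S undifferentiated replicate 3) and 4 lower, against 27.5% and 28.1% of all genes. The markers then summed to 104.03 to 109 CPM in C48S and 176 to 189.6 CPM in WT. All 14 had a count in each group, and their part in the values of Tfap2a was not tested.

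Gata2 and Gata3, zinc finger factors that act side by side in trophectoderm, ended RA at different ratios in the lines. Gata3 lies on chromosome 2 (9861889 to 9894845, minus strand). It was at 29.2, 24.7 and 26.9 CPM in the C48S RA libraries and 26.6, 24.7 and 23.5 CPM in the WT RA libraries. Before RA it was at 1.70, 1.70 and 0.931 CPM in C48S and 2.94, 4.11 and 4.01 CPM in WT. The lines overlapped after RA and were apart before it, with C48S lower. The difference after RA was 0.11 ± 0.10 (95% interval -0.12 to 0.35, adjusted p = 0.358), and before RA Gata3 was 2.53-fold lower in C48S (-1.34 ± 0.25, adjusted p = 1.92e-05). With RA it rose 18.4-fold in C48S, against 6.70-fold in WT (interaction 1.46 ± 0.27, adjusted p = 3.63e-05).

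Gata2, on chromosome 6 (88170873 to 88184014, plus strand), had the opposite form. It was at 29.8, 33.7 and 34.2 CPM in the C48S RA libraries and 15.03, 14.0 and 18.4 CPM in the WT RA libraries, and at 6.53, 5.65 and 6.93 CPM in C48S and 5.77, 6.13 and 5.86 CPM in WT before RA. The lines overlapped before RA and were apart after it. Gata2 was 2.06-fold higher in C48S after RA (1.05 ± 0.10, adjusted p = 1.68e-10), and before RA the difference was 0.11 ± 0.16 (95% interval -0.27 to 0.48, adjusted p = 0.603). It rose 5.09-fold with RA in C48S and 2.65-fold in WT (interaction 0.94 ± 0.19, adjusted p = 0.000163). The ratio of Gata3 to Gata2 in TPM was 1.13 ± 0.176 in C48S and 2.18 ± 0.382 in WT after RA, and 0.315 ± 0.118 in C48S and 0.844 ± 0.133 in WT before it, without overlap of the lines in either state. Gata4, Gata5 and Gata6, the GATA factors of endoderm and heart, also rose with RA in both lines. Gata6 reached 16.1 ± 2.27 CPM in C48S and 10.2 ± 1.07 CPM in WT, and Gata4 18.5 ± 0.419 CPM in C48S and 13.1 ± 1.57 CPM in WT. Of 14 endoderm markers, which include Gata4 and Gata6, 12 were tested. With RA 11 rose and 1 fell in either line (39.0% and 34.6% of all genes in C48S, 40.9% and 37.4% in WT). After RA 4 were higher and 4 lower in C48S (4 and 5 without C48S undifferentiated replicate 3), against 28.8% and 25.7% of all genes. Their sums after RA were lower in C48S, at 640 to 651 CPM, than in WT, at 866 to 888 CPM. Gata1, the GATA factor of red cells, stayed below the filter on low counts, with a mean of at most 0.478 CPM in any group. Of 12 blood and endothelial markers 9 were tested. After RA 2 were higher and 3 lower in C48S (2 and 4 without C48S undifferentiated replicate 3), against 28.8% and 25.7% of all genes. Their sums after RA were 52.3 to 56.6 CPM in C48S and 50.5 to 52.2 CPM in WT, and the embryonic globin gene Hbb-bh1 had no count in any library. The part of these cells in the values of Gata2 was not tested.

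Eomes, a T-box factor that keeps trophoblast stem cells in self-renewal, had the largest difference between the lines after RA of the 8 tested members. It lies on chromosome 9 (118307280 to 118315200, plus strand). It was at 22.8, 23.8 and 18.5 CPM in the C48S RA libraries and 5.60, 5.75 and 6.54 CPM in the WT RA libraries. Before RA it was at 7.13, 4.16 and 5.48 CPM in C48S and 3.57, 3.27 and 4.99 CPM in WT. The C48S RA libraries stood above all 9 others. Eomes was 3.63-fold higher in C48S after RA (1.86 ± 0.15, adjusted p = 1.25e-12). Before RA the lines overlapped, and the difference of 0.54 ± 0.21 (adjusted p = 0.0251) lost its call without WT undifferentiated replicate 1 (0.48, adjusted p = 0.0846), WT undifferentiated replicate 2 (0.41, adjusted p = 0.146) or C48S undifferentiated replicate 1 (0.32, adjusted p = 0.259). With RA Eomes rose 3.81-fold in C48S (1.93 ± 0.15) and 1.53-fold in WT (0.61 ± 0.20, adjusted p = 0.0071; 0.48 and adjusted p = 0.0598 without WT undifferentiated replicate 2). Between the lines the RA change differed by 1.32 ± 0.26 (adjusted p = 0.000111).

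Eomes also marks the primitive streak. Of 14 markers of streak and mesoderm 12 were tested. After RA 4 were higher and 1 lower in C48S (3 and 1 without C48S undifferentiated replicate 3), against 28.8% and 25.7% of all genes. Their sums after RA were 82.8 to 84.1 CPM in C48S and 56.3 to 64.5 CPM in WT. The T gene, brachyury, the defining factor of the streak, was at 2.53 ± 0.0908 CPM in C48S and 1.46 ± 0.161 CPM in WT, and Mixl1 at 1.44 ± 0.763 CPM in C48S and 1.68 ± 0.489 CPM in WT. The other called genes were Lhx1, Bmp4 and Evx1, higher in C48S, and Kdr, the receptor of endothelial precursors, lower (-2.18 ± 0.33). Mesp1 and Msgn1, of nascent and presomitic mesoderm, had a mean of at most 0.199 CPM in any group. The part of streak-like cells in the level of Eomes was not tested. Of the T-box relatives of Eomes, Tbx21, known from T cells, was at 0.732 ± 0.294 CPM in C48S and 21.5 ± 2.66 CPM in WT before RA (-4.90 ± 0.23, adjusted p = 3.06e-19), whereas Tbr1 stayed near 1 CPM and passed no test.

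Elf5, an ETS factor that closes a self-reinforcing loop with Cdx2 and Eomes in trophoblast stem cells and is kept methylated in ES cells, was close to the limit of detection. It had 2, 1 and 3 counts in the C48S RA libraries and 4, 5 and 3 in the WT RA libraries, and 1, 1 and 1 counts in C48S and 1, 2 and 1 in WT before RA. Pooled over each group, that is 0.0606 to 0.360 CPM in C48S and 0.197 to 0.664 CPM in WT after RA (exact 95% Poisson intervals, which cover counting error only). The WT RA libraries lay above the C48S RA libraries, but with all genes kept in the fit the difference did not pass the test (-1.16 ± 0.89, adjusted p = 0.393), nor did the RA change in C48S (0.67 ± 1.13, adjusted p = 0.719) or in WT (1.46 ± 0.97, adjusted p = 0.231). The related epithelial gene Elf3 was at 147 ± 6.27 CPM in C48S and 39.0 ± 5.15 CPM in WT after RA (1.92 ± 0.14, adjusted p = 8.16e-07) and at 188 ± 33.4 CPM in C48S and 103 ± 8.26 CPM in WT before it (0.88 ± 0.12). The more widely expressed Elf1, Elf2 and Elf4 differed less between the lines after RA (-0.14 ± 0.094, 0.16 ± 0.065 and -0.36 ± 0.087), and Ehf had at most 0.528 CPM in the mean of any group.

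Hand1 and Ascl2, basic helix-loop-helix factors of later trophoblast, behaved differently from each other. Hand1, which drives giant cell formation, lies on chromosome 11 (57719531 to 57723644, minus strand). In C48S RA libraries it stood at 6.15, 5.99 and 6.82 CPM, and in WT RA libraries at 8.81, 5.15 and 4.59 CPM. Before RA it had 2, 1 and 5 counts in the C48S libraries and 18, 26 and 24 in the WT libraries, or 0.264 ± 0.221 CPM in C48S and 2.22 ± 0.359 CPM in WT. The lines overlapped after RA, where WT replicate 1 was the highest, and were apart before it. After RA the difference was 0.047 ± 0.20 (95% interval -0.42 to 0.52, adjusted p = 0.864). Hand1 was 8.23-fold lower in undifferentiated C48S (-3.04 ± 0.48, adjusted p = 1.57e-06). With RA it rose 23.4-fold in C48S and 2.75-fold in WT, and the changes differed by 3.09 ± 0.53 (adjusted p = 1.31e-05). C48S undifferentiated replicate 3 held 5 of the 8 counts of its group. Without it Hand1 was 14.5-fold lower in undifferentiated C48S (-3.86 ± 0.58), rose 41.5-fold with RA in C48S (5.38 ± 0.46), and the difference of the RA changes was 3.91 ± 0.63. The related Hand2 was at 1.53 ± 0.471 CPM in C48S and 1.22 ± 0.239 CPM in WT after RA and rose with RA in both lines (2.89 ± 0.54 in C48S and 1.59 ± 0.50 in WT).

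Ascl2, an imprinted gene of the spongiotrophoblast expressed from the maternal allele, lies on chromosome 7 (142520566 to 142523001, minus strand). It was at 9.76, 8.98 and 7.53 CPM in the C48S RA libraries and 6.84, 5.83 and 6.84 CPM in the WT RA libraries. Before RA it was at 7.13, 9.38 and 8.997 CPM in C48S and 6.29, 4.70 and 8.13 CPM in WT. The lines were apart after RA and overlapped before it. Ascl2 was higher in C48S after RA (0.43 ± 0.17, adjusted p = 0.029) and before it (0.43 ± 0.18, adjusted p = 0.0391). Neither call was firm. That after RA was lost with DESeq2 (adjusted p = 0.0966), with RLE scaling (adjusted p = 0.0517) and without WT RA replicate 2 (adjusted p = 0.137) or 3 (adjusted p = 0.0582) or C48S RA replicate 1 (adjusted p = 0.146) or 2 (adjusted p = 0.0693). That before RA was lost with DESeq2 (adjusted p = 0.0884), with RLE scaling (adjusted p = 0.0506) and without WT undifferentiated replicate 1 (adjusted p = 0.0793) or 2 (adjusted p = 0.321) or C48S undifferentiated replicate 2 (adjusted p = 0.131) or 3 (adjusted p = 0.0637). The RA change was 0.053 ± 0.16 in C48S (95% interval -0.32 to 0.43) and 0.046 ± 0.18 in WT (95% interval -0.38 to 0.47), and neither passed the test. The related Ascl4 passed no test.

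Fibroblast and feeder cell markers were compared as a check on other cells. Of 16 such genes 15 were tested, and in undifferentiated cells 8 were higher and 4 lower in C48S, where 27.5% of all tested genes were higher and 28.1% lower. Without C48S undifferentiated replicate 3, 16 were tested, 10 of them higher and 3 lower. They summed to 542 to 703 CPM in C48S and 415 to 447 CPM in WT, and those with the smallest adjusted p were Pdgfrb, a receptor of mesenchymal cells (1.21 ± 0.087), and the collagen gene Col1a2 (1.32 ± 0.11), both higher in C48S. After RA 2 were higher and 4 lower (3 and 4 without that library), against 28.8% and 25.7% of all genes. The markers then summed to 447 to 459 CPM in C48S and 308 to 324 CPM in WT, and all 16 had a count in each group. Their part in the differences of the 9 regulators was not tested.

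The regulators were also set beside the genes of their own chromosomes, because chromosomes 6 and 11 differed as a whole between the lines. The comparison took protein-coding genes that averaged 1 CPM or more. On chromosome 6 their median log2 difference of C48S against WT was 0.631 after RA and 0.583 before it (658 genes). Tead4 exceeded 67.6% of them after RA and 60.3% before, by 0.215 and 0.131 over the median, so its difference was close to that of its chromosome. The median of the 11 genes that start within 1 Mb of it was 0.939 after RA and 0.661 before. Gata2, on the same chromosome, was 0.415 above the median after RA and 0.48 below it before (-0.477). On chromosome 11 the median was -0.477 after RA and -0.527 before (1166 genes). Relative to it Hand1 was at 0.524 after RA and at -2.51 before, where 2.14% of the genes of the chromosome were lower still. The other tested members lie on chromosomes 2, 7, 9 and 13, whose medians were within 0.128 of 0 in both states. Eomes exceeded 98.2% of the genes of chromosome 9 and Tfap2c 95% of those of chromosome 2 after RA, and Tfap2a 94% of those of chromosome 13 before RA. Copy number was not measured. The part of these chromosome-wide shifts in the values of Tead4, Gata2, Hand1 and other named genes on chromosomes 6 and 11 was not tested.

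**Figure D4:**
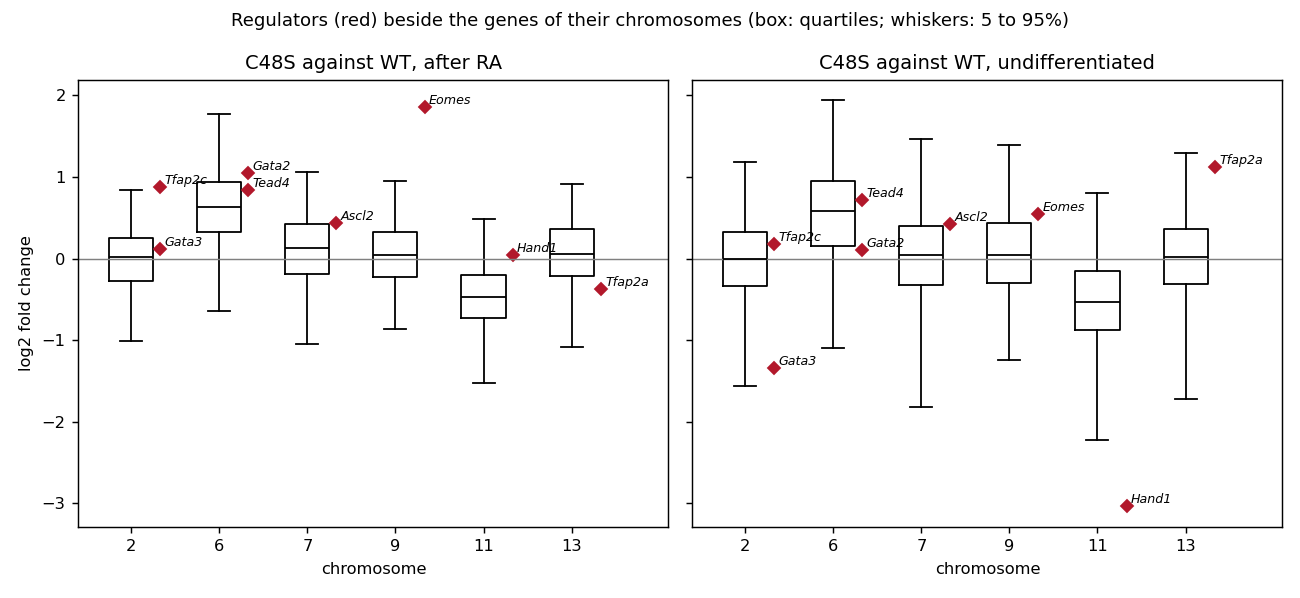
Log2 difference of C48S against WT for the 8 tested regulators (diamonds) beside the protein-coding genes of their chromosomes with a mean of at least 1 CPM (boxes show quartiles, whiskers the 5th to 95th percentile), after RA on the left and undifferentiated on the right. Tead4 lies inside the box of chromosome 6 in both states, while Eomes after RA and Hand1 before it lie outside the whiskers of their chromosomes.

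Other genes of the trophoblast program moved in mixed directions. Of 18 trophoblast stem cell and trophectoderm markers 17 were tested. With RA 13 rose and 3 fell in C48S (39.0% and 34.6% of all genes), with a median of 2.10, against 0.049 over all genes. In WT 12 rose and 4 fell (40.9% and 37.4%), with a median of 2.64, against 0.055. Those with the smallest adjusted p in C48S were Nr0b1, a nuclear receptor gene that ES cells also express and which fell (-4.37 ± 0.089), and the homeobox genes Dlx3 (6.08 ± 0.14) and Esx1 (3.79 ± 0.12) and the keratin gene Krt8 (2.92 ± 0.089), which rose. Those with the smallest adjusted p in WT included Krt8 (5.87 ± 0.11), Nr0b1 (-6.87 ± 0.13) and Dlx3 (5.69 ± 0.13). Between the lines after RA 6 of the 17 were higher and 8 lower in C48S, against 28.8% and 25.7% of all genes. Higher was Cdx2, the homeobox factor that specifies trophectoderm, at 38.2 ± 2.84 CPM in C48S and 2.95 ± 0.962 CPM in WT (3.67 ± 0.15), although before RA it was lower, at 0.523 ± 0.323 CPM in C48S and 5.70 ± 0.786 CPM in WT. Id2, an inhibitor of helix-loop-helix factors, was higher too (1.04 ± 0.079). Lower were Krt18, at 112 ± 3.598 CPM in C48S and 341 ± 5.82 CPM in WT, and Fgfr2, the receptor through which FGF4 sustains trophoblast stem cells, at 15.002 ± 1.58 CPM in C48S and 59.2 ± 1.65 CPM in WT. Cdx2, Eomes, Gata2 and Tfap2c were higher in C48S after RA in the same libraries in which Krt18, Fgfr2 and Tfap2a were lower. Keratins and Cdx2 also mark other epithelia.

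**Figure D5:**
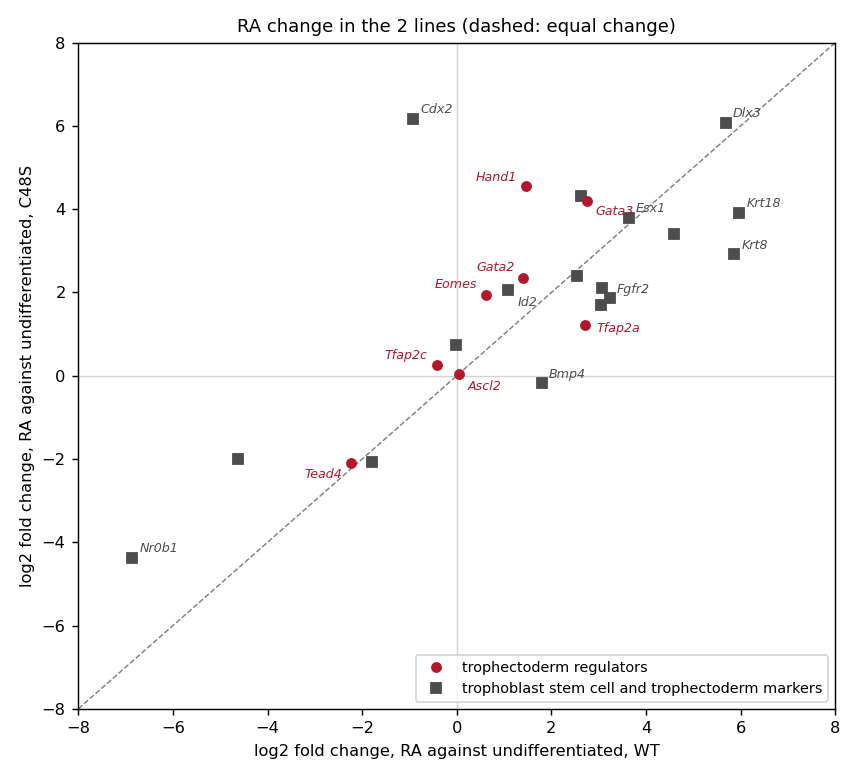
Log2 RA change in C48S (y axis) against that in WT (x axis) for the 8 tested regulators (circles) and 17 trophoblast stem cell and trophectoderm markers (squares, some named). The dashed line is equal change. Eomes, Gata2, Gata3, Tfap2c and Hand1 lie above it, Tfap2a below it and Tead4 and Ascl2 near it, with Cdx2 (6.17 in C48S and -0.93 in WT) farthest above.

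Of 18 markers of differentiated trophoblast, 8 had enough counts to be tested. The placental lactogen gene Prl3b1 and Tpbpa of the spongiotrophoblast had no count in any of the 12 libraries, and 5 more had counts in 1 of the 4 groups alone. Those were Prl3d1 (2 counts) and the syncytin gene Synb (1 count) in C48S after RA, and Ctsq (3 counts), Prl7a1 (2 counts) and Hsd3b6 (1 count) in WT after RA. Of these 8 genes 6 rose and 2 fell with RA in C48S (39.0% and 34.6% of all genes). In WT 5 rose and 3 fell (40.9% and 37.4%). Without C48S undifferentiated replicate 3, 10 were tested, and 6 rose and 2 fell in C48S and 7 rose and 3 fell in WT. Between the lines after RA 4 of the 8 were higher and 1 lower in C48S, against 28.8% and 25.7% of all genes. Without C48S undifferentiated replicate 3 these counts were 4 and 2 of 10 tested. The median of the 8 was 0.54, against 0.023 over all genes. Higher were the glucose transporter gene Slc2a3 (1.40 ± 0.044), the co-regulator gene Cited2 (1.16 ± 0.083), the cell cycle inhibitor gene Cdkn1c (1.23 ± 0.12) and Prl2c2, a gene of giant cells (1.07 ± 0.38). Gcm1, the regulator of syncytiotrophoblast, was at 8.88 ± 1.04 CPM in C48S and 10.01 ± 0.621 CPM in WT after RA (difference -0.18 ± 0.15, adjusted p = 0.309). Peg10, an imprinted gene active in many embryonic tissues, was the one lower in C48S, at 5649.9 ± 62.3 CPM in C48S and 8572 ± 123 CPM in WT (-0.60 ± 0.046).

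For each tested regulator the genes with the most similar pattern were taken as the 3 protein-coding genes, of 14779, with the smallest Euclidean distance over the 12 libraries on centred log2 CPM. For Tead4 these were Arid5b (r = 0.99), Zbtb7a (r = 0.99) and Kat2b (r = 0.987), and for Tfap2c Wwc2 (r = 0.93), Ppp1r2 (r = 0.925) and Plch1 (r = 0.921). Tfap2a was nearest to Gyg (r = 0.988), Zfp521 (r = 0.983) and Kitl (r = 0.98), the last the ligand of the Kit receptor. Eomes was nearest to Enpp3 (r = 0.967), Guca1b (r = 0.956) and Adad2 (r = 0.953), and Gata2 to the collagen gene Col4a1 (r = 0.989), Mov10l1 (r = 0.986) and Pear1 (r = 0.982). The nearest genes to Gata3 were Gcgr (r = 0.994), Agbl2 (r = 0.998) and Foxq1 (r = 0.99). Those of Hand1 were 2810459M11Rik (r = 0.967), Mogat2 (r = 0.964) and the endocytic receptor gene Lrp2 (r = 0.959), and those of Ascl2 were Fuz (r = 0.863), Gba2 (r = 0.783) and Rev1 (r = 0.793). Among the regulators themselves Tfap2c and Ascl2 were the closest pair by distance (1.18, r = 0.422), then Eomes and Gata2 (1.64, r = 0.884). The r values are Pearson correlations over 12 libraries that fall into 4 groups, given as a description.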

How the data were processed

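RNA was depleted of ribosomal RNA before sequencing, per the labels' protocols. The authors deposited raw read pair counts for every gene and library, made with featureCounts 1.6.3 (strand option 2, largest overlap, Ensembl release 104 on GRCm39), per the file headers, with no normalization. STAR 2.7.9a, DESeq2 and mm39 are named in the submitters' processing notes. Symbols were matched by identifier to GENCODE M21 (52135 of 55416, 94.1%). Libraries were grouped by title. The regulators and all gene lists were chosen with earlier results of these data known. Named list genes are up to 4 per comparison with the smallest adjusted p, every gene of a list with at most 5 calls, and all of the Hippo and paralogue lists, with others chosen after their values were seen; a few genes are not reported here.

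The test was the quasi-likelihood F-test of edgeR 4.0.16 (R 4.3.3) after filterByExpr at a minimum count of 10 and scaling by TMM, in a robust fit of 4 group means over 12 libraries (8 residual degrees of freedom), called at an adjusted p under 0.05 over 17940 genes. CPM were computed with TMM library sizes and TPM from the gene lengths in the files, and genes are compared with each other on TPM alone. Log2 CPM for pattern likeness used a prior count of 2. Alternatives were DESeq2 1.42.0, RLE scaling, scaling without chromosomes 6, 8, 11 and Y, other filters, a fit of the compared groups only, a null of a 1.5-fold change, leaving out each library in turn and a block for the replicate number. At 8678088 to 13597098 counts a library, genes near 1 CPM rest on about 10 counts. No library was left out.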

Additional observations from a re-analysis of the deposited data

Results flagged for a closer look

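The RA change differed between C48S and WT for 6 of the 8 tested regulators, by edgeR's test of the interaction (39.4% of all tested genes were called). On the log2 scale the difference (C48S minus WT) was 3.09 for Hand1, 1.46 for Gata3, 1.32 for Eomes, 0.94 for Gata2 and 0.688 for Tfap2c, and -1.50 for Tfap2a. All 6 kept their call with each of the 12 libraries left out in turn, with RLE scaling and with DESeq2. In edgeR's test against a null of a 1.5-fold change, Gata2 (adjusted p = 0.0729) and Tfap2c (adjusted p = 0.349) lost theirs. For Hand1 and Gata3 the lines were apart before RA and overlapped after it, for Gata2 and Tfap2c they were apart after RA and overlapped before it, and Tfap2a was apart in both states in opposite directions. Tfap2c is the one of the 6 whose RA changes had opposite signs, 0.26 ± 0.086 in C48S and -0.43 ± 0.094 in WT. The rise in C48S lost its call without C48S undifferentiated replicate 2 (0.16, adjusted p = 0.113). With a null of a 1.5-fold change neither RA change of Tfap2c passed the test.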

How the results depend on the processing

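Of 792 single-gene values under the alternatives, 742 kept their direction and side of the threshold, 31 lost a call, 2 gained one and 17 changed sign. Those that changed sign were Hand1 and Ascl2 differences that had not passed the test, and the cause of these changes was not tested. With only the compared groups in the fit, 2 members instead of 4 were called higher in undifferentiated C48S. With a null of a 1.5-fold change, 3 members were called there (1 higher), 0 were lower in C48S after RA, 1 fell with RA in WT and 3 had a larger RA change in C48S. Leaving out 1 library gave 2 to 4 members higher in undifferentiated C48S, and 4 to 5 higher and 0 to 1 lower in C48S after RA. With RA it gave 5 to 6 that rose in C48S and 4 to 5 in WT. Hand1 after RA was -0.0057 with DESeq2 and between -0.14 and 0.37 without 1 library. Ascl2 with 1 library left out ranged between -0.15 and 0.25 for RA in WT, -0.066 and 0.16 for RA in C48S, and -0.22 and 0.18 for their difference, which was -0.017 with RLE scaling, -0.0036 with scaling outside chromosomes 6, 8, 11 and Y, -0.015 with DESeq2 and -0.0055 with every gene that has a count. Deviations of same-numbered libraries from their group means correlated at r -0.053 to 0.029 over all tested genes. Counting noise lowers such values, so they cannot show whether the numbers pair libraries, and the labels do not say. With the replicate block 6, 6, 7, 7 and 6 members were called (undifferentiated cells, cells after RA, the RA change of WT, that of C48S and their difference). These counts were the same as without the block, and no member's call changed. Depth limits Elf5 and undifferentiated Hand1.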

Other observations

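Several genes overlap the regulators on the opposite strand, and strand was used in the counting. On the same strand as Gata3 lies 9230102O04Rik, which strand cannot separate from it. That gene had 0, 1 and 0 counts in the C48S RA libraries and 3, 4 and 1 in the WT RA libraries, too few for the test. 4930412O13Rik, opposite Gata3, had 12, 17 and 20 counts in the C48S RA libraries and 25, 22 and 23 in the WT RA libraries, against 1, 3 and 0 in undifferentiated C48S and 0 in each undifferentiated WT library. It rose with RA in both lines (adjusted p = 2.23e-05 in C48S and 6.47e-09 in WT), as Gata3 did, and its difference between the lines after RA did not pass the test (-0.71 ± 0.35, adjusted p = 0.0885). Gm33460, opposite Eomes, had 9, 4 and 10 counts in the C48S RA libraries and 3, 0 and 3 in the WT RA libraries. Gm26688, opposite Tfap2a, had 1, 3 and 0 counts in the C48S RA libraries and 4, 7 and 11 in the WT RA libraries. The other opposite-strand genes at Tfap2a were Gm47067, with 2, 1 and 1 counts in the C48S RA libraries and 0, 0 and 1 in the WT RA libraries, and Gm47061, with 4, 0 and 3 in C48S and 2, 4 and 0 in WT. Gm33460 and these 3 genes at Tfap2a were too low for the test, and their group means after RA did not all lie on the side of the regulator they overlap.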
